A study of Mus musculus with 8 samples.

Results

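The nuclear pore genes examined here were 40 genes that encode nucleoporins, nuclear transport receptors and the components of the Ran cycle, taken from a table of 24499 gene symbols. They were found by symbol, ignoring case, and each gene was represented by its transcript of highest average level over both groups. The set was drawn up with this comparison already known, so its differences between the groups are a description and support no inference about the set. All 40 were found, and 15821 genes in the table reached 1 RPKM in at least 1 group (RPKM, reads scaled by transcript length and by the total of the library). The table came from RNA sequencing of testes of mice at postnatal day 5 on the 129/SVJ background, with 4 wild-type samples and 4 samples labelled Dio3KO. The enzyme encoded by Dio3 inactivates thyroid hormones, and the title gives thyroid hormone regulation of genes in the neonatal testis as the subject. The labels give no further detail of the Dio3KO allele.

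The nuclear pore complex is the passage for protein and RNA between nucleus and cytoplasm. A scaffold of ring-shaped subcomplexes holds the pore in the nuclear envelope, nucleoporins rich in phenylalanine-glycine repeats fill its central channel, and a basket and filaments extend from its nuclear and cytoplasmic faces. Karyopherins carry cargo through the channel, and the GTPase Ran, loaded with GTP in the nucleus and made to hydrolyse it in the cytoplasm, sets the direction. In dividing cells the envelope and its pores are taken apart at mitosis and rebuilt afterwards, and further pores are added in interphase.

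Every level given below is the mean of a group as deposited by the authors, with the coefficient of variation (CV, the SD divided by the mean) of that group. Values of single mice were not used, and read depth is unknown. Significance was taken from the adjusted p of the authors' deposited table, and "rose" or "fell" is written only where that p was below 0.05. In whole testis, fewer cells of a type and less RNA per cell cannot be told apart. Dio3 was listed at 0.52 RPKM in wild-type and 2.95 RPKM in Dio3KO-labelled testes, so its level does not check the label, on which every direction given here depends. The extraction text names hypothalami. Of 10 hypothalamic and neuronal markers, 2 reached 1 RPKM and the highest, Agrp, was at 1.49 RPKM. Markers of Sertoli, Leydig and germ cells were present, as the tissue label states.

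As a set, transcripts of the nuclear pore and its transport factors were slightly lower in Dio3KO-labelled testes. The karyopherins as a group lay near all genes tested. Of the 40 genes, 13 fell and 0 rose, while 15.8% of all genes tested fell and 13.8% rose in the authors' deposited table. Of the remaining 27, 25 had a lower and 2 a higher mean without passing. The differences were small. No member differed by 1.5-fold, whereas 9.14% of all genes tested did. The median log2 ratio of the 40 genes (Dio3KO-labelled over wild type, with 0.5 RPKM added to each mean) was -0.15, beside -0.05 for all genes tested. With both groups scaled to equal RPKM sums these medians were -0.05 and 0.04. On the deposited scale the median was -0.20 for the 28 pore proteins and -0.04 for the 9 karyopherins. The summed level of the 40 genes was 1559 RPKM in wild-type and 1356 RPKM in Dio3KO-labelled testes. Among the 11889 genes whose average level lay within the range of the members, 3.74 to 156 RPKM, 16.6% fell and 13.9% rose in the authors' deposited table.

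**Figure D1:**
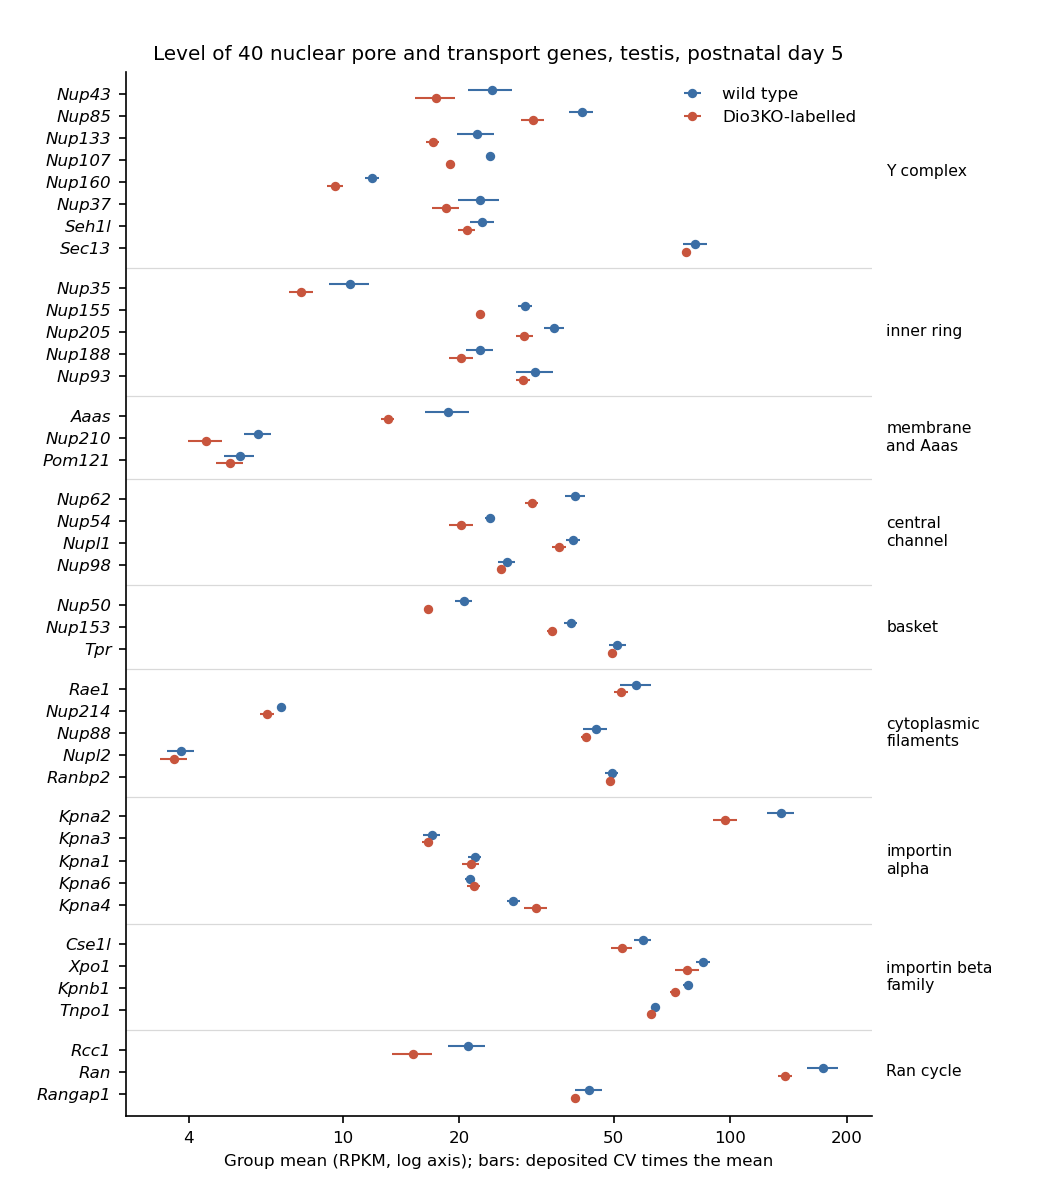
Group means of the 40 genes in RPKM on a log axis, wild type in blue and Dio3KO-labelled in red, with bars of the deposited CV times the mean. The red point lies left of the blue one for 38 genes, and levels run from 3.66 RPKM for Nupl2 to 174 RPKM for Ran.

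The direction of the smallest differences depended on the scale. RPKM values over all transcripts summed to 1015250 in wild type and 947625 in the Dio3KO-labelled group. On the deposited scale 38 of 40 members had a lower mean, beside 58.1% of all genes tested. When both groups were scaled to the same sum, 28 members were lower, beside 41.8% of all genes tested. When ratios were centred on the median gene, 32 were lower. With the threshold for the p of the authors' deposited table set to 0.01, 3 members were called lower and 0 higher, beside 4.9% and 4.27% of all genes tested, and 8 of the 99 transcripts of members lower, beside 4.7% of all transcripts. A recomputed unequal-variance test, which used each group's mean and CV and Benjamini-Hochberg adjustment, called 15 members lower and 0 higher, beside 16.1% and 14% of all genes tested. A moderated limma test built from the means and CVs, adjusted by Benjamini-Hochberg over all genes tested, called 19 members lower and 1 higher, beside 23.1% and 18.5% of all genes tested. With equal sums it called 15 lower and 1 higher, beside 12.7% and 27.9% of all genes, and on the centred scale 17 lower and 1 higher, beside 16.7% and 23.0%.

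Because the members that passed all fell, the promoters of 4 of them are printed as examples. The 4 were picked by different criteria and do not stand for the rest. CCAAT is more frequent among them than among all members that fell (4 of 11 windows). Kpna2 is shown as the most abundant member that fell, Nup107 and Nup155 as those with the smallest adjusted p, and Nup62 as the channel protein with the largest fall. Each line reads 5′ to 3′ along the strand of the gene, from 250 bases before the RefSeq transcription start up to that start, or up to the first exon base where GENCODE M21 places the start further upstream. The genes lie, in GENCODE M21 on mm10, on chromosome 11 from 106988629 to 106999541 (Kpna2, minus strand), chromosome 7 from 44816088 to 44830812 (Nup62, plus strand), chromosome 15 from 8109273 to 8161247 (Nup155, plus strand) and chromosome 10 from 117750621 to 117792705 (Nup107, minus strand). The sequences are from RefSeq (GRCm38.p6, the assembly of mm10), at chr11:106999542-106999775 on the minus strand for Kpna2, chr7:44815838-44816087 on the plus strand for Nup62, chr15:8109063-8109272 on the plus strand for Nup155 and chr10:117792706-117792955 on the minus strand for Nup107. Capitals mark CCAAT or its reverse complement ATTGG, and TTTGAA or its reverse complement TTCAAA.
Kpna2: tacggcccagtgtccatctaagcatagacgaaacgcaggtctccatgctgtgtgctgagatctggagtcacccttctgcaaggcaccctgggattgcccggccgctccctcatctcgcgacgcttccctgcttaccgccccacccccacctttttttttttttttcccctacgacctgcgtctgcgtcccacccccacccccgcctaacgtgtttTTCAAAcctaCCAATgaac
Nup62: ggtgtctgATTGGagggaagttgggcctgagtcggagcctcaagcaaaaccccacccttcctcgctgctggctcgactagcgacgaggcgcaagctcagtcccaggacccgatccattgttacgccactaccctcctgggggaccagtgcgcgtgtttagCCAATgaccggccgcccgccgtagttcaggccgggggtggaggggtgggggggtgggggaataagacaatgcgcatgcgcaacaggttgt
Nup155: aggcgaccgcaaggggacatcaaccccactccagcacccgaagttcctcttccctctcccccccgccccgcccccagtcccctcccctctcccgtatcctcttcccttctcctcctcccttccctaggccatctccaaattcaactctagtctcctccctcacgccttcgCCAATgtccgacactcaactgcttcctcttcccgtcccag
Nup107: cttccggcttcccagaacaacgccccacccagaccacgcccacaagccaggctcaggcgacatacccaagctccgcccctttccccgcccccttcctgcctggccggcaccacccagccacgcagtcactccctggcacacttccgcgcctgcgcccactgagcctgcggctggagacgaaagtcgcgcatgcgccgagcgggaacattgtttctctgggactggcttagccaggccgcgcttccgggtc
In Kpna2 the TTTGAA match begins 35 bases and the printed CCAAT match 25 bases before the RefSeq start, and a second CCAAT match lies in the stretch of its window that is not printed. Nup62 has CCAAT matches that begin 242 and 90 bases before its start, Nup155 has one at 80 bases, and the Nup107 window holds none of the motifs searched.

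Windows of 250 bases before to 50 bases after the start were found for 32 of the 40 genes. Motifs were searched on both strands and can overlap. CCAAT, the box bound by the factor NF-Y, was in 4 of the 11 windows of members that fell and in 11 of the 21 others, beside 37.9% of all 27025 genes with a window. TTTGAA, the core of the cell cycle genes homology region found at mitotic genes, was in 2 of 11 and 6 of 21, beside 18.1% of all genes. TTCGAA was in 0 of the 32 windows (1.57% of all genes), and so were the E2F-type letters TTTCGCGC and TTTGGCGC (0.833% of all genes). The shares among members that fell, 36.4% for CCAAT and 18.2% for TTTGAA, were near those of all genes.

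The scaffold, the largest subgroup, held the most falls by number. Of its 16 genes 7 fell (43.8%) and 9 did not pass, beside 15.8% of all genes tested that fell. By share, the central channel (2 of 4 genes) and the basket (2 of 3) stood higher. The median of the 16 log2 ratios of the scaffold was -0.32. Within the scaffold, the Y complex is the outer ring unit that also seeds pore assembly on chromatin after mitosis. Of the 8 genes listed here for it, 4 fell (50%). Nup107 was at 23.98 RPKM (CV 0.02) in wild-type and 18.94 RPKM (CV 0.02) in Dio3KO-labelled testes. This was 79.0% of the wild-type mean, or -0.33 ± 0.02 as a log2 ratio (SE from the CVs). The authors' deposited table gave Nup107 the smallest adjusted p of the 40 genes, 0.0027. Nup160 fell from 11.89 RPKM (CV 0.04) in wild type to 9.55 RPKM (CV 0.05), which is -0.30 ± 0.04 on the log2 scale (SE), at an adjusted p of 0.0091 (authors' deposited table). Nup85, whose product sits at the hub of the Y, fell from 41.4 RPKM (CV 0.07) to 30.98 RPKM (CV 0.07). The log2 ratio of Nup85 was -0.41 ± 0.07 (SE), at an adjusted p of 0.0134 (authors' deposited table). Nup43 fell from 24.2 RPKM (CV 0.13) in wild type to 17.4 RPKM (CV 0.12), which is -0.46 ± 0.12 on the log2 scale (SE). Nup43 stood just inside the threshold (authors' deposited table, adjusted p 0.047).

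The other genes of the Y complex did not pass. Nup133 (22.2 and 17.1 RPKM) and Nup37 (22.6 and 18.4 RPKM) had log2 ratios of -0.37 and -0.29, close to those of the genes that fell, and wild-type CVs of 0.11 and 0.12. Seh1l was at 22.9 and 20.9 RPKM and Sec13 at 81.4 RPKM (CV 0.07) and 76.8 RPKM (CV 0.01), with log2 ratios of -0.13 ± 0.06 and -0.08 ± 0.05 (SE). Both proteins also serve outside the pore, Sec13 in the COPII coat of secretory vesicles and Seh1l in the GATOR complex that controls mTORC1. Whether these roles bear on the ratios was not tested. The 6 genes listed for the complex other than Sec13 and Seh1l lay between -0.46 and -0.29, a split made with the values known. Nup98, listed with the central channel, also encodes a Y complex protein, cleaved from its precursor, and had a log2 ratio of -0.05. Seh1l stood nearer to the 6 by its other transcript, at 22.16 and 19 RPKM. The log2 ratio of that transcript was -0.22 ± 0.06 (SE), at an adjusted p of 0.0522 (authors' deposited table). Ahctf1, which brings the Y complex to chromatin and is listed with the further genes, had a log2 ratio of -0.05. The levels of these 6 genes, per transcript length, ran from 11.89 to 41.4 RPKM in wild type, and Sec13 stood above them. With both groups scaled to the same RPKM sum, the ratio of Sec13 turned positive, at 0.02.

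In the inner ring, which joins the outer rings to the channel, 2 of 5 genes fell (40%), beside 15.8% of all genes tested. Nup155 was at 29.6 RPKM (CV 0.04) in wild-type and 22.5 RPKM (CV 0.02) in Dio3KO-labelled testes, 76.2% of wild type, with a log2 ratio of -0.38 ± 0.03 (SE), at an adjusted p of 0.0075 (authors' deposited table). Nup205 fell from 35.1 RPKM (CV 0.06) in wild type to 29.4 RPKM (CV 0.05), which is -0.25 ± 0.06 on the log2 scale (SE), at an adjusted p of 0.0313 (authors' deposited table). Its paralog Nup188 did not pass (22.6 and 20.2 RPKM). Nup93, the linker that binds both, was at 31.4 and 29.2 RPKM with a log2 ratio of -0.10 ± 0.08 (SE). Nup35, an inner ring protein that touches the membrane, was at 10.4 and 7.80 RPKM, with a log2 ratio of -0.40 ± 0.10 (SE), at an adjusted p of 0.0551 (authors' deposited table).

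Of the membrane-anchored nucleoporins, Nup210 fell from 6.05 RPKM (CV 0.08) in wild type to 4.43 RPKM (CV 0.10), which is -0.41 ± 0.08 on the log2 scale (SE), at an adjusted p of 0.0188 (authors' deposited table). Pom121, the other transmembrane member, did not pass, at 5.41 and 5.10 RPKM. Aaas, which encodes the pore protein ALADIN, had the largest difference of the 40 genes, 18.7 RPKM (CV 0.13) against 13.1 RPKM (CV 0.04). Its log2 ratio was -0.50 ± 0.10 (SE), and it stood just outside the threshold, at an adjusted p of 0.0537 (authors' deposited table). The moderated limma test called Aaas, Nup133, Nup35 and Nup37 lower, though with equal RPKM sums it did not call Nup37 (-0.19).

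**Figure D2:**
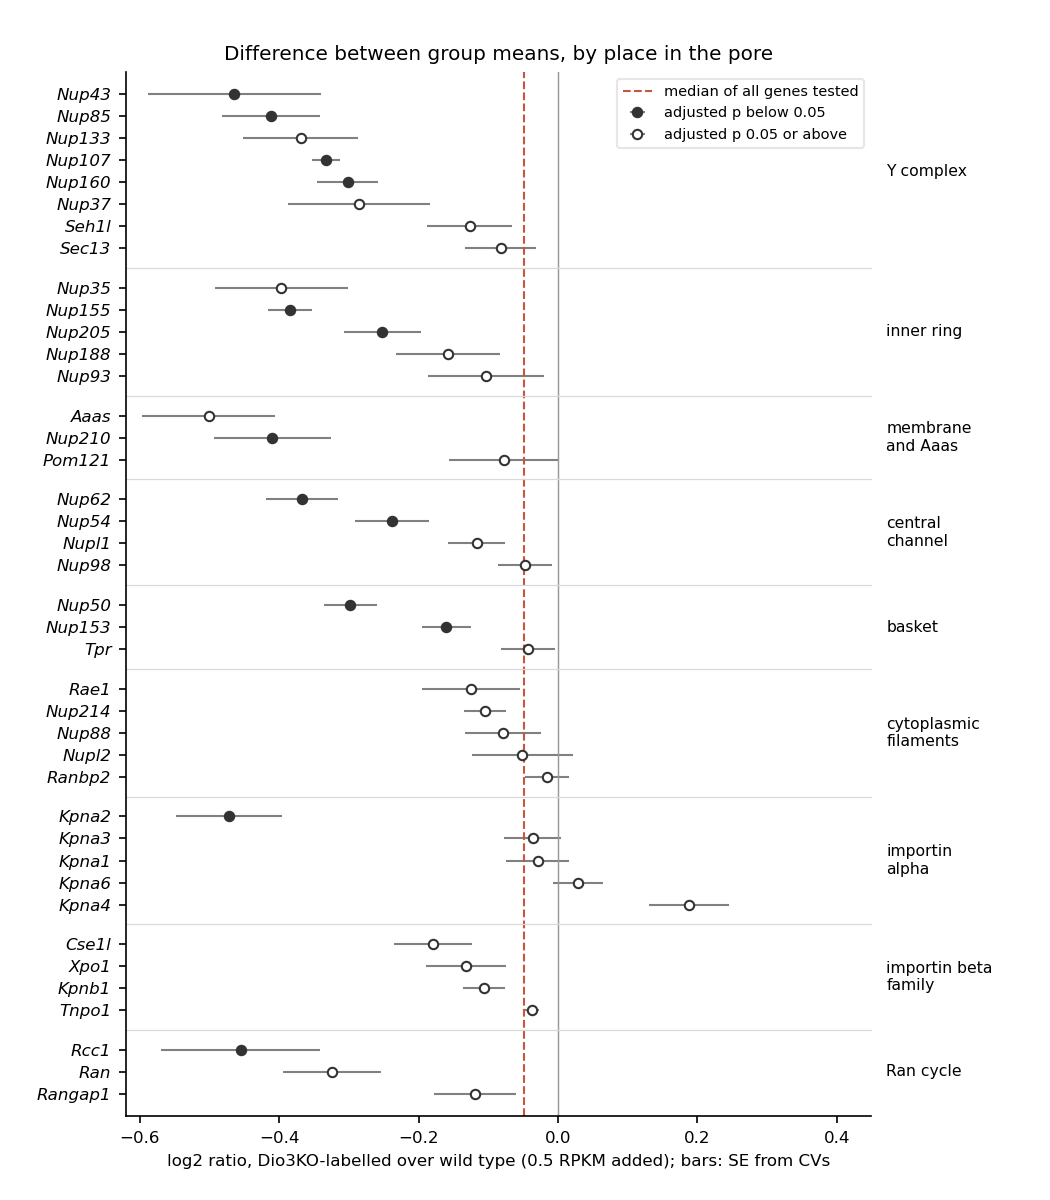
log2 ratio of the group means (Dio3KO-labelled over wild type, 0.5 RPKM added) for each gene with its SE, grouped by place in the pore, and filled where the adjusted p was below 0.05. The dashed line is the median of all genes tested, -0.05, and the 13 filled points lie between -0.47 and -0.16.

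The central channel was uneven. Nup62, Nup54 and Nupl1 (now named Nup58) form the channel trimer, whose repeats make the permeability barrier. Nup62 was at 39.8 RPKM (CV 0.06) in wild-type and 30.8 RPKM (CV 0.04) in Dio3KO-labelled testes, 77.2% of wild type, with a log2 ratio of -0.37 ± 0.05 (SE), at an adjusted p of 0.0134 (authors' deposited table). Nup54 fell from 23.95 RPKM (CV 0.03) in wild type to 20.2 RPKM (CV 0.07), which is -0.24 ± 0.05 on the log2 scale (SE), at an adjusted p of 0.0306 (authors' deposited table). Nupl1 did not pass, at 39.3 and 36.2 RPKM. Exons of Nupl1 share 55.4% of their bases with other annotated genes, among them Atp8a2, and the use of strand in read assignment is not stated. The share was 12.4% for Nup188, 11.9% for Pom121, 10.4% for Nup133 and 3.40% for Nup62. Nup98, whose precursor is cleaved into a repeat protein and a scaffold protein, was at 26.5 and 25.6 RPKM, and its log2 ratio of -0.05 ± 0.04 (SE) turned positive with equal sums (0.05) and when centred (0.0018).

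The nuclear and the cytoplasmic face of the pore gave different counts, a difference that was not tested. With 3 and 5 genes, the counts are too small to set the faces apart. In the basket, 2 of 3 genes fell, beside 15.8% of all genes tested. Nup50, a cofactor of importin-driven import, fell from 20.5 RPKM (CV 0.05) in wild type to 16.6 RPKM (CV 0.02), which is -0.30 ± 0.04 on the log2 scale (SE), at an adjusted p of 0.0172 (authors' deposited table). Nup153, which anchors the basket, fell from 38.7 RPKM (CV 0.04) to 34.6 RPKM (CV 0.03), 89.4% of wild type. This was the smallest fall that passed, a log2 ratio of -0.16 ± 0.04 (SE), at an adjusted p of 0.0222 (authors' deposited table). Nup153 was not called by moderated limma with equal sums (-0.06) or when centred (-0.11), which leaves 1 of the 3 basket genes lower on those scales. Tpr, the filament protein of the basket, did not pass, at 51.2 and 49.6 RPKM.

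Of the 5 genes of the cytoplasmic filaments, 0 fell and 0 rose, beside 15.8% and 13.8% of all genes tested. The moderated limma test called 0 of them, beside 23.1% lower and 18.5% higher among all genes tested. At an unadjusted p below 0.05 it also called 0, and no share of all genes at that p is given here. Ranbp2, the large SUMO ligase and Ran-binding protein of the filaments, was at 49.5 RPKM (CV 0.04) and 48.9 RPKM (CV 0.02), 98.9% of wild type. Nup88 (44.9 and 42.5 RPKM) and its partner Nup214 (6.90 and 6.38 RPKM), which serve mRNA export and Xpo1-dependent export, had log2 ratios of -0.08 and -0.11. The mRNA export factor Rae1 was at 57.2 and 52.4 RPKM, and Nupl2 (now named Nup42) at 3.81 and 3.66 RPKM. The ratios of the filament genes lay between -0.13 and -0.02, and with equal sums those of Ranbp2, Nup88 and Nupl2 turned positive (0.08, 0.02 and 0.04).

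Among the karyopherins, 1 of 9 genes fell (11.1%), beside 15.8% of all genes tested. Their median log2 ratio was -0.04, beside -0.05 for all genes tested. Importins alpha are the adaptors that recognise classical nuclear localisation signals, and each of the 5 genes measured encodes one. Kpna2 was at 135 RPKM (CV 0.08) in wild-type and 97.3 RPKM (CV 0.07) in Dio3KO-labelled testes, 72.0% of wild type. Its log2 ratio was -0.47 ± 0.08 (SE), at an adjusted p of 0.0179 (authors' deposited table). Kpna2 was also the most abundant importin alpha, and the other 4 were each below 32 RPKM in both groups. Kpna1 (21.9 and 21.4 RPKM), Kpna3 (16.97 and 16.5 RPKM) and Kpna6 (21.3 and 21.7 RPKM) had log2 ratios between -0.04 and 0.03, and those of Kpna1 and Kpna3 turned positive under both other scalings. Kpna4 had the highest ratio of the 40 genes. It was at 27.6 RPKM (CV 0.04) in wild-type and 31.5 RPKM (CV 0.07) in Dio3KO-labelled testes, a log2 ratio of 0.19 ± 0.06 (SE), at an adjusted p of 0.0733 (authors' deposited table). The moderated limma test called Kpna4 higher on each of the 3 scales.

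The importin beta family carries cargo, alone or through an adaptor, and binds Ran directly. None of its 4 members passed in the authors' deposited table. The moderated limma test called 1 of the 4 lower, Cse1l, beside 23.1% of all genes tested. At an unadjusted p below 0.05 it had 3 of the 4 as lower, but no share of all genes at that p is given here. Cse1l was not called with equal sums (-0.08) or when centred (-0.13), and the recomputed unequal-variance test called Kpnb1 and Tnpo1 lower. Kpnb1, importin beta itself, was at 77.8 RPKM (CV 0.03) and 72.3 RPKM (CV 0.03), which is -0.11 ± 0.03 on the log2 scale (SE), at an adjusted p of 0.055 (authors' deposited table). Xpo1, the main exporter of proteins with a leucine-rich signal, was at 85.1 RPKM (CV 0.04) and 77.6 RPKM (CV 0.07), which is -0.13 ± 0.06 on the log2 scale (SE). Cse1l, which returns importin alpha to the cytoplasm, was at 59.6 and 52.5 RPKM with a log2 ratio of -0.18 ± 0.06 (SE). Tnpo1, the importer of many RNA-binding proteins, was at 64.0 and 62.4 RPKM with CVs of 0.01 in both groups. In the authors' deposited table, Tnpo1 at 97.4% of the wild-type mean and Aaas at 69.9% had the same adjusted p, 0.0537. The size of a difference and its adjusted p thus did not rank alike. In all, 6 members that did not pass had a deeper log2 ratio than the -0.16 of Nup153, which did.

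In the Ran cycle, Rcc1, the chromatin-bound exchange factor that loads Ran with GTP, fell from 21.03 RPKM (CV 0.11) to 15.2 RPKM (CV 0.12), 72.3% of wild type and a log2 ratio of -0.46 ± 0.11 (SE). Its adjusted p was 0.0329 in the authors' deposited table, and its exons share 3.51% of their bases with Snhg3 and another annotated gene. Ran, the most abundant of the 40 transcripts, was at 174 RPKM (CV 0.09) and 139 RPKM (CV 0.04). Its log2 ratio was -0.32 ± 0.07 (SE), at an adjusted p of 0.0558 (authors' deposited table), and the moderated limma test called it lower. Rangap1, the cytoplasmic activator of GTP hydrolysis by Ran, did not pass, at 43.1 and 39.6 RPKM.

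The transcripts that did not stand for a gene were mostly lower too, 56 of 59, though transcripts of a gene share reads and are not replicates. The 40 genes had 99 transcripts, each of at least 1 RPKM in either group, and 31 genes had more than 1. Of the 99, 94 had a lower and 5 a higher mean in Dio3KO-labelled testes. In the authors' deposited table, 30 of them fell and 0 rose, beside 15.7% and 13.9% of all 35030 transcripts of at least 1 RPKM. All 4 transcripts of Nup107, with means of 16.3 to 23.98 RPKM in wild type, fell. The 7 transcripts of Nup98 had log2 ratios from -0.11 to -0.02, and 0 of them passed. Tnpo1 was the gene with transcripts on both sides of 0. Of its 5 transcripts, 3 were near 54 RPKM in wild type, at 54.6, 54.2 and 53.9 RPKM, and each had a log2 ratio of 0.02.

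**Figure D3:**
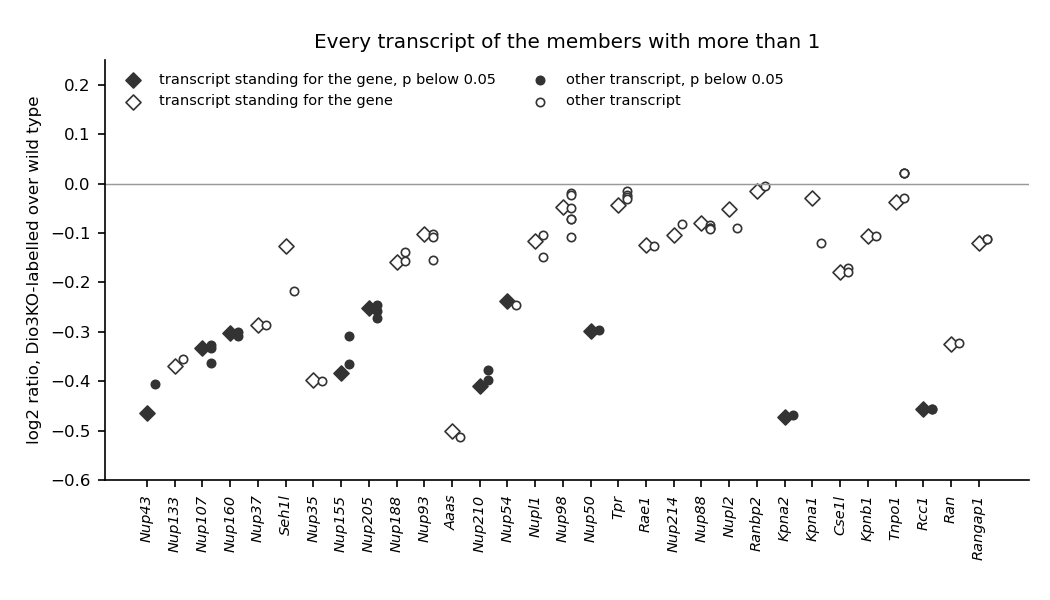
log2 ratio of each transcript of the 31 members with more than 1 (Dio3KO-labelled over wild type, 0.5 RPKM added), with diamonds for the transcript that stands for the gene, circles for the others, and filled symbols where the adjusted p was below 0.05. Every filled symbol lies below 0, and 3 circles of Tnpo1 lie above it.

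The rest of the transport machinery, from a list of 40 further genes of which 37 reached 1 RPKM, is given beside the members. Of these 37, 11 fell (29.7%) and 1 rose in the authors' deposited table, beside 15.8% and 13.8% of all genes tested. Their median log2 ratio was -0.16, beside -0.05 for all genes tested. Among other pore proteins, the transmembrane nucleoporin Ndc1 (listed as Tmem48) fell from 27.96 to 20.95 RPKM, while Ahctf1, which brings the Y complex to chromatin, was at 30.02 and 29.1 RPKM. Ranbp1, the coactivator of Ran GTP hydrolysis, fell from 135.5 to 103 RPKM, and Nutf2, which returns Ran to the nucleus, from 52.6 to 43.7 RPKM. The importins Ipo5 (42.9 to 36.1 RPKM), Ipo9 (27.9 to 24.8 RPKM) and Ipo8 (17.9 to 16.3 RPKM) fell, and so did the exportins Xpo7 (27.8 to 22.9 RPKM) and Xpo5 (23.0 to 20.3 RPKM). Ranbp6, an importin beta relative, was the gene that rose, from 9.09 to 9.95 RPKM.

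In the mRNA export pathway, 3 of 11 genes fell (27.3%), beside 15.8% of all genes tested. Nxt1, the partner of the export receptor Nxf1, had the deepest log2 ratio of the further genes, -0.60, at 33.8 RPKM (CV 0.07) and 22.2 RPKM (CV 0.09). Its adjusted p was 0.0072 in the authors' deposited table. The RNA helicase gene Ddx39b (listed as Bat1a) fell from 158 to 123 RPKM and the adaptor gene Alyref (listed as Thoc4) from 107 to 86.7 RPKM. Nxf1 itself did not pass, at 46.5 and 40.9 RPKM.

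Genes of dividing cells showed larger differences in the same direction. All 20 genes of a mitosis list fell, with a median log2 ratio of -0.72, and 18 of 20 genes of DNA replication fell, with a median of -0.57. Kif11, a spindle motor, fell from 42.3 to 23.7 RPKM and Pcna, the replication clamp, from 162 to 108 RPKM. No ratio of the 40 pore and transport genes lay below the -0.51 of Kif20a, the smallest fall in the mitosis list. In the nuclear lamina list, 7 of 13 genes fell and 2 rose, with a median of -0.15. Lmnb1 and Lmnb2, the B-type lamins, fell, Lmnb1 from 50.5 to 34.4 RPKM and Lmnb2 from 17.95 to 11.7 RPKM. The 2 that rose, named after their values were seen, were Sun2 (23.2 to 32.1 RPKM), which links the envelope to the cytoskeleton, and Lemd2 (16 to 19.3 RPKM). Of 15 genes of ribosome biogenesis, 5 fell and 0 rose, with a median of -0.18, among them Npm1 from 568 to 440.5 RPKM. Over all genes tested, 15.8% fell and 13.8% rose in the authors' deposited table.

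Markers of the cell types of the testis also differed, in both directions. Their counts stand beside 15.8% of all genes tested that fell and 13.8% that rose in the authors' deposited table. Of 9 Sertoli cell markers, 4 fell and 2 rose, and their summed level was 792 RPKM in wild-type and 801 RPKM in Dio3KO-labelled testes. The near-equal sums held opposite changes: Amh, the hormone of immature Sertoli cells, fell from 284 to 127 RPKM and the FSH receptor gene Fshr from 17.8 to 9.49 RPKM, while Cldn11, a tight junction gene, rose from 83.6 to 299.9 RPKM. Of 6 Leydig cell markers, 2 rose, the steroidogenic genes Cyp11a1 (64.2 to 156 RPKM) and Hsd3b1 (158 to 244.9 RPKM). The 4 that did not pass lay on both sides. Star (24.8 and 44.9 RPKM) and Lhcgr (2.95 and 3.35 RPKM) had a higher mean, Insl3 (84.7 and 70.0 RPKM) a lower one. Cyp17a1 was near equal (55.45 and 55.07 RPKM). The sum of the 6 was 390.3 and 574 RPKM. Of 4 peritubular markers, Acta2 fell from 401 to 346 RPKM, and Des (13.75 to 25.3 RPKM) and Myh11 (57.5 to 66.5 RPKM) rose, with sums of 485 and 452 RPKM. Of 8 macrophage markers, 6 rose, and their summed level was 81.8 RPKM in wild-type and 163 RPKM in Dio3KO-labelled testes. Of 6 endothelial markers 3 rose (50.5 and 62.8 RPKM). Of 9 measured germ cell markers (273 and 242 RPKM) 0 passed in the authors' deposited table. Moderated limma had 4 of the germ cell markers as lower and 1 as higher, beside 23.1% and 18.5% of all genes tested. No marker of these lists was at 0 in either group. The part of cell division and of cell make-up in the differences of the pore and transport genes was not tested.

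**Figure D4:**
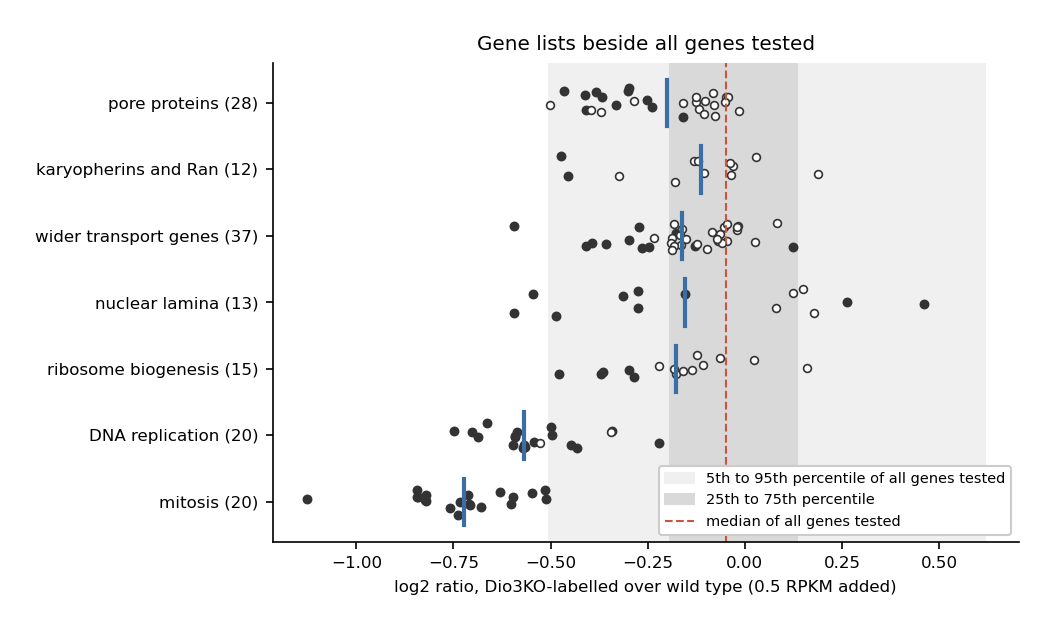
log2 ratio (Dio3KO-labelled over wild type, 0.5 RPKM added) of each gene in 7 lists, filled where the adjusted p was below 0.05, with a blue bar at each list's median and grey bands for all genes tested. Pore proteins have a median of -0.20 and karyopherins with Ran -0.11, the karyopherins alone -0.04. The medians of DNA replication and mitosis, -0.57 and -0.72, lie left of the 5th percentile of all genes, -0.50.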

How the data were processed

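RNA of testes from 4 wild-type and 4 Dio3KO-labelled mice was sequenced. FastQC, Novoalign 2.08 and the build mm10 are named, without a role, in the submitters' processing notes. For the counter, annotation, strandedness and statistical test, the answer is not given in the sources used here. Per the file headers, RPKM means per group were deposited. The deposited CV is the ratio of SD to mean in each group, and the deposited adjusted p-value compares wild type with KO, both per the file headers. The table had 147417 lines and 49139 transcripts once repeated lines were dropped. There were 0 columns of per-sample values, so depth is unknown and no replicate was left out. The design text calls the samples biological quadruplicates.

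The 15821 genes that reached 1 RPKM in at least 1 group entered the comparisons, by deposited symbol, without merging older symbols. The call was the authors' adjusted p below 0.05. Fold changes were taken as log2(RPKM + 0.5), so those of low genes are understated, and SEs come from the CVs with 4 samples per group by the delta method. As an alternative, variances from the CVs were moderated with limma 3.58.1 in R 4.3.3 (6 residual degrees of freedom, a CV of 0.00 set to 0.0025). The p-values were adjusted by Benjamini-Hochberg over all genes tested. The limma test was also run on simulated data with no scale difference between the groups, so that run does not bear on the choice of scale. Scripts used Python 3.11.15 with pandas 2.3.3 and scipy 1.17.1. Coordinates and exon overlaps are from GENCODE M21, and promoters from RefSeq GRCm38.p6. Protein sequences were not used here, so the planned protein comparison was not made.

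The members and the gene lists were chosen with earlier results of these data known, so no test of a list is given. The rule for named genes took all 40 members, with full values for the 12 smallest adjusted p and the 6 highest levels. From each other list it took up to 4 genes past the threshold and up to 2 not past it. Of these, the ones with the clearest role are printed. Kif20a, Sun2, Lemd2 and the full set of Leydig markers were named outside this rule. Alternatives tried were the choice of transcript, the call rule, the level filter, the pseudocount and the scaling.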

Additional observations from a re-analysis of the deposited data

How the results depend on the processing

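No paired analysis was possible because the table holds group means and no per-sample values, and for the same reason leaving out each replicate was not run. Pseudocounts of 0.1 and 1 RPKM, no level filter or one of 5 RPKM, and choosing by highest wild-type mean, which took transcripts with the same values, cannot change the deposited p, so the counts of 13 lower and 0 higher under them say nothing about stability. At an adjusted p below 0.01, 3 members (Nup107, Nup155 and Nup160), 8 of the 99 transcripts and 4 of the further transport genes were called lower, and 0 of the further genes higher. At that threshold 4.9% of all genes tested and 4.7% of all transcripts were lower, and 4.27% of all genes higher. With all transcripts of a gene summed, which has no p, 37 members had a lower mean and the members' median log2 ratio was -0.1585. The ratio of Tnpo1 turned positive there, at 0.0029. The shares of all genes called by the tests that follow are given in the Results. The recomputed unequal-variance test called 15 members lower, the 13 with Kpnb1 and Tnpo1. The moderated limma test called 19 members lower, again including the 13, and 1 higher (Kpna4), and of the further genes 17 lower and 0 higher. With equal RPKM sums it called 15 members lower, 11 of them among the 13, and 1 higher, with 8 further genes lower and 2 higher. The members' median log2 ratio was then -0.0472 and that of the further genes -0.0687, beside 0.04 for all genes tested. Centred on the median gene it called 17 lower, 12 of them among the 13, and 1 higher, with 9 further genes lower and 1 higher. The members lost were Nup54 and Nup153 with equal sums and Nup153 when centred. Signs turned for members that had not passed: with equal sums, Kpna1 0.0679, Kpna3 0.0607, Nup88 0.019, Nup98 0.0503, Nupl2 0.0367, Pom121 0.0131, Ranbp2 0.0825, Sec13 0.0165, Tnpo1 0.0613 and Tpr 0.0554, and when centred, Kpna1 0.0198, Kpna3 0.0132, Nup98 0.0018, Ranbp2 0.0331, Tnpo1 0.0117 and Tpr 0.006. The cause of these shifts was not tested beyond the scaling itself, which adds 0.10 to each ratio for equal sums before the pseudocount. Precision is limited by 4 samples per group and by CVs deposited in rounded form.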

Other observations

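Most members varied more among the wild-type samples, a difference that was not tested. Of the 40 pore and transport genes, 24 had a larger CV in wild-type than in Dio3KO-labelled testes, 10 a smaller one and 6 the same, with medians of 0.06 and 0.04. Over all genes tested, 59.5% had a larger CV in wild type, with medians of 0.08 and 0.06, close to the share among the members. In the members with the deepest differences that did not pass, Aaas, Nup35 and Nup133, the wild-type CVs were 0.13, 0.12 and 0.11, while the Dio3KO-labelled CVs were 0.04, 0.07 and 0.04.

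In mm10 with the GENCODE M21 annotation the 40 genes lie on 15 chromosomes. Exons of 13 of them share bases with another annotated gene, and 4 (Nupl1, Nup188, Pom121 and Nup133) share 10.4% to 55.4% of theirs, none of which fell in the authors' deposited table. Of the members that fell, Nup62 (3.40%) and Rcc1 (3.51%) share any.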
